A study of Mus musculus with 20 samples.

Results

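This account covers 10 growth factor and cytokine receptor genes of microglia: Csf1r, Csf2ra, Csf2rb, Csf3r, Il6ra, Il6st, Il7r, Il10ra, Tnfrsf1a and Tnfrsf1b. They were chosen by name, as receptors through which microglia receive survival and inflammatory signals, out of 54838 genes in the count files. All 10 had counts in all 20 libraries and were among the 12680 genes that passed the filter on low counts. Microglia, the resident macrophages of the brain, were sorted from frontal cortex at postnatal day 40, 1000 from each mouse, through a gate for strong CD11b and weak CD45 staining. The genotype labels are 5: wild type (WT), with 4 libraries; C4-/-, with 5; hC4A/-, also with 5; hC4B/-, with 4; and hC4A/A, with 2. Mouse C4b encodes complement component C4, and the design text describes transgenic mice that hold sequences of the human C4 genes, written hC4A and hC4B in the labels. The labels do not give the promoter of the human genes, the strain or the sex, and whether hC4A/-, hC4B/- and hC4A/A mice also lack mouse C4 is not stated in them. Each library was taken as 1 mouse, because cells were counted out mouse by mouse in the protocol.

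CSF1R is the tyrosine kinase receptor on which microglia depend for survival, and it binds CSF1 and IL-34. The receptors for GM-CSF, IL-3 and IL-5 pair a ligand-specific alpha chain with a shared beta chain encoded by Csf2rb. IL-6 binds its own alpha chain and signals through gp130, the product of Il6st, which also serves LIF and oncostatin M, and JAK kinases and STAT factors carry the signal onward. TNFR1 (Tnfrsf1a) and TNFR2 (Tnfrsf1b) instead recruit TRAF adaptors, and only TNFR1 has a death domain.

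Gene counts per library ran from 855099 to 2735181. Of these, 13 satellite-like predicted genes took 13.3% to 81.0%. The 8 microglia markers, Cx3cr1 and Tmem119 among them, were present in every genotype and summed to 2501 to 8385 CPM, the count of a gene relative to its library's total as scaled by the TMM method. The labels' targeted gene went against a plain reading of WT and C4-/-: C4b held 0 to 2 counts per library in those labelled WT and 7 to 157 in those labelled C4-/-. It held 5 to 45 in hC4A/-, 4 to 428 in hC4B/- and 21 to 271 in hC4A/A. These are counts over the whole gene, and the labels do not say which exons the C4-/- allele lacks, so they do not settle the genotype. Genotype names below are therefore names of labels, and each direction between genotypes is one between libraries so labelled. The 4 WT libraries also carry a different naming series in the deposited files from the other 16, and this cannot be told apart from genotype. A further 4 libraries stood apart by the number of genes with a count, 27178 to 30907 against 11348 to 23912 in the other 16. They are called many-gene libraries here, and they were replicates 2 and 3 of hC4B/-, replicate 3 of C4-/- and replicate 2 of hC4A/A. Their microglia marker sums, 2501 to 4481 CPM, lay below the 4641 to 8385 CPM of the other 16. Markers of other cells summed over the series to 4.30 to 99.5 CPM for border macrophages, 0.668 to 41.5 for monocytes and 2.30 to 194 for neurons. They summed to 5.80 to 70.2 CPM for oligodendrocytes, 5.85 to 80.1 for endothelial cells and 44.2 to 742 for astrocytes, the last mostly Slc1a3 (30.6 to 693). The highest neuron sum, in hC4B/- replicate 1, was mostly Elavl3 at 159 CPM, a gene without counts in 11 libraries.

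Csf1r was by far the most abundant of the 10 receptors per length of transcript. Its level, in CPM per kb of exon, had a median of 95.3 over the 20 libraries (range 56.7 to 461). Il7r followed with a median of 34.1 CPM per kb (1.95 to 106.7). Then came Il6ra at 18.1 (6.51 to 54.1), Csf2rb at 16.5 (3.65 to 69.5), Csf3r at 15.3 (4.97 to 73.2), Il10ra at 11.7 (3.34 to 45.5) and Il6st at 11.2 CPM per kb (3.86 to 29.98). The ranges of these middle genes overlapped almost wholly, so their order was not resolved. Tnfrsf1a at 7.11 (1.69 to 21.5) and Tnfrsf1b at 6.69 CPM per kb (1.91 to 36.05) did not differ beyond their spread either. Csf2ra was lowest, with a median of 2.25 CPM per kb (0.204 to 8.12). Csf1r ranked first of the 10 in 19 of 20 libraries, the exception being C4-/- replicate 2, where Il7r was first. Csf2ra ranked last in 17 of 20. Among all 12680 tested genes by per-length level, Csf1r held a median rank of 243 (23 to 431), against 5604.5 for Csf2ra.

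**Figure D1:**
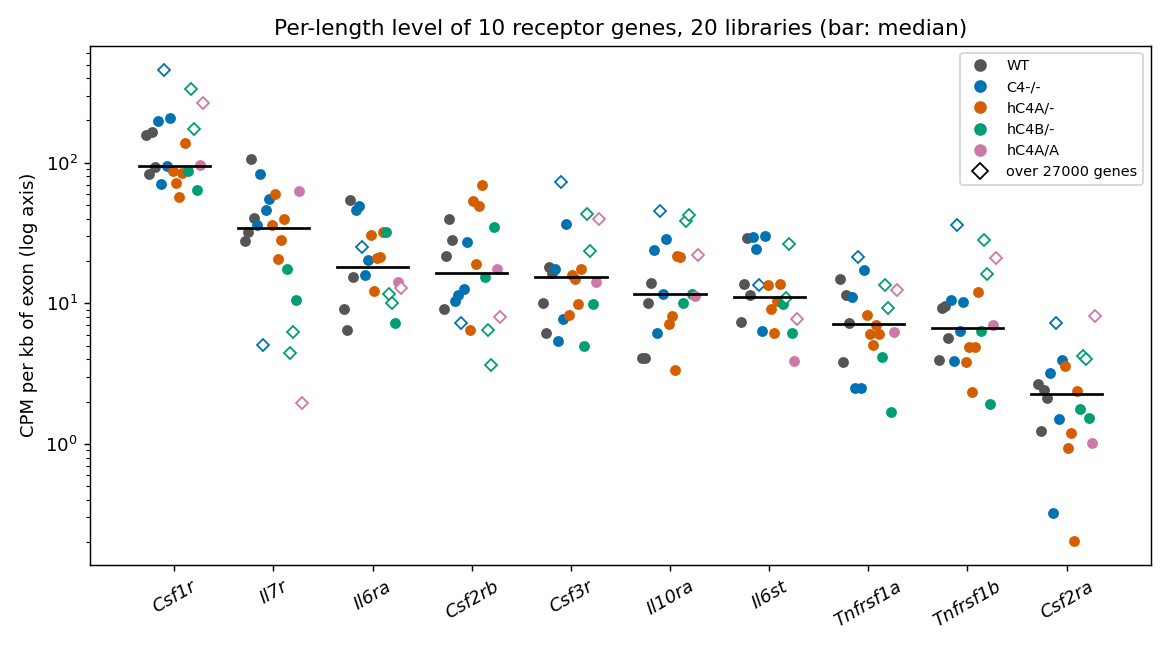
Level of each receptor gene in CPM per kb of exon (log axis), 1 point per library coloured by genotype label; open diamonds are the 4 libraries with over 27000 detected genes and bars are medians over 20 libraries. Csf1r has the highest median, 95.3, and Csf2ra the lowest, 2.25.

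None of the 10 receptor genes differed between genotypes after adjustment over all genes tested. In a quasi-likelihood F test over the 5 genotypes (edgeR), 0 of 10 passed at a Benjamini-Hochberg adjusted p under 0.05, where 0.118% of all tested genes did. At an unadjusted p under 0.05 that test also held 0 of 10, against 12% of all genes. In each of 9 pairwise contrasts 0 of 10 passed the adjusted threshold, and so did 0% of all genes. At an unadjusted p under 0.05, counting both directions, 1 of 10 receptors passed in C4-/- against WT, where 8.55% of all genes did. The hC4B/- against WT contrast held 2 of 10 against 13.1% of all genes, while hC4A/- against WT held 0 against 7.51% and hC4A/A against WT 0 against 8.41%. Against C4-/-, the count was 1 of 10 for hC4A/- (10.7% of all genes), 1 for hC4B/- (4.52%) and 1 for hC4A/A (2.17%). Between genotypes with a human gene, hC4A/- against hC4B/- held 1 of 10 (16.7%) and hC4A/A against hC4A/- 0 (11.5%). With 10 genes, 1 or 2 at that level is near the share of all genes in most contrasts. The comparisons against WT share the same 4 libraries and those against C4-/- the same 5, so they are not independent of each other.

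**Figure D2:**
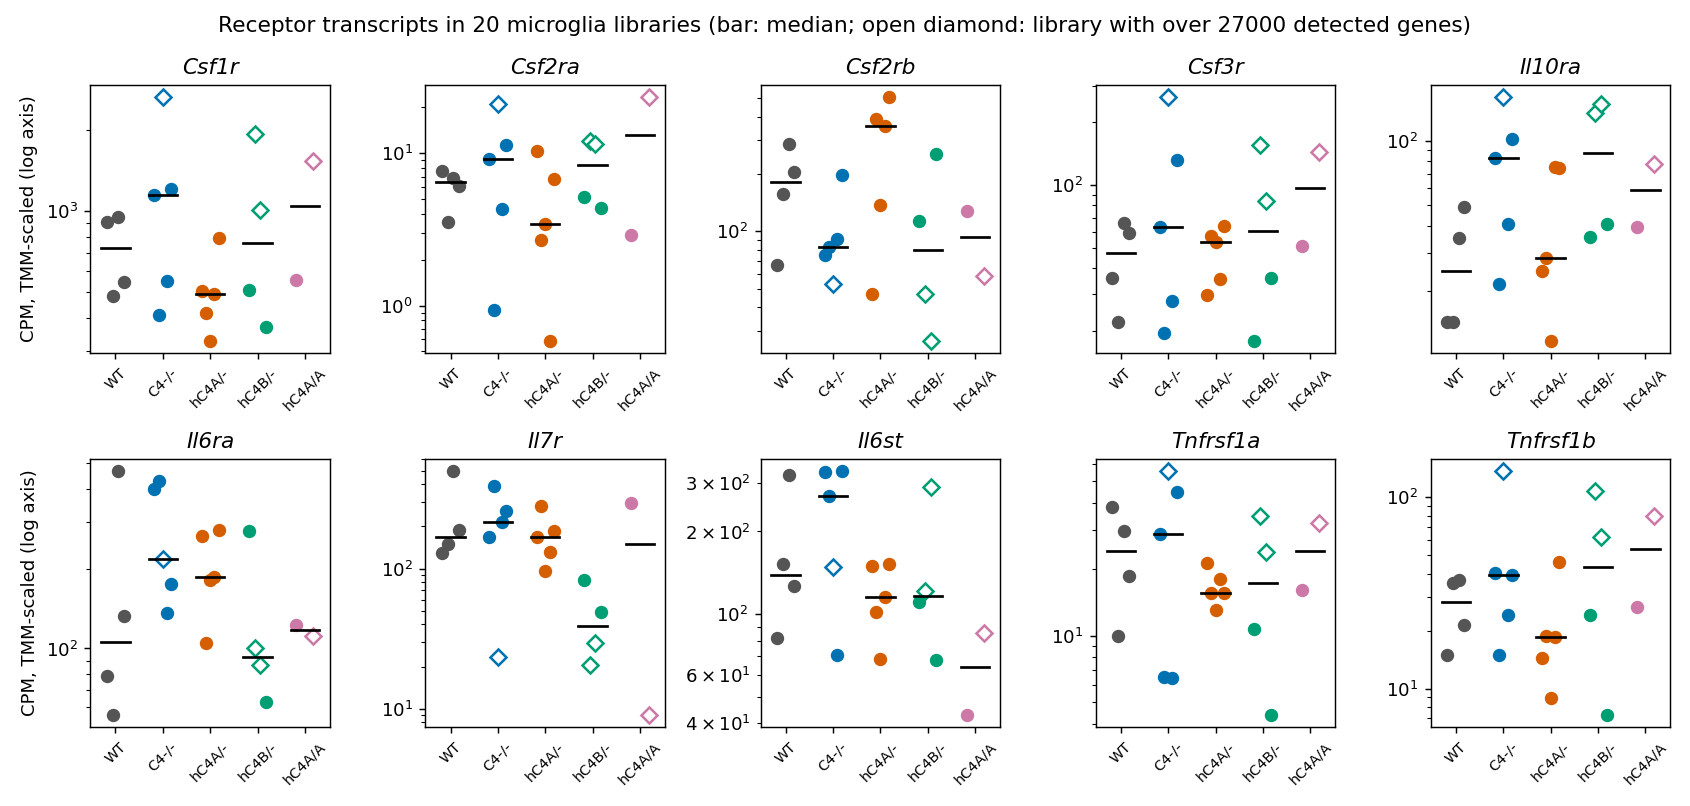
CPM (TMM-scaled, log axis) of each receptor gene in every library, by genotype label; bars are group medians and open diamonds are the 4 libraries with over 27000 detected genes. Il7r runs from 20.5 to 82.4 CPM in the hC4B/- libraries, below all 4 WT points, and the open diamonds hold the 4 highest values of Csf2ra and of Tnfrsf1b.

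Csf1r (ENSMUSG00000024621, GRCm38 chromosome 18, 61100598 to 61132149, plus strand, 24 exon blocks) varied widely within genotypes. The 4 WT libraries held 909.9, 483, 951 and 542 CPM, and the 5 C4-/- libraries 1144, 408, 2661, 547 and 1207. Those labelled hC4A/- held 505, 416, 327, 492 and 793, hC4B/- 507, 1938, 1007 and 368, and hC4A/A 553 and 1535. The values overlapped between all genotypes, and the highest, 2661, 1938 and 1535 CPM, were all in many-gene libraries. Mean Csf1r (± SD) was 721 ± 243 CPM over the 4 WT libraries, 1193 ± 893 over the 5 of C4-/- and 507 ± 175 over the 5 of hC4A/-. It was 955 ± 710.5 over the 4 of hC4B/- and 1044 ± 694 over the 2 of hC4A/A. Over the 5 genotypes the F test's adjusted p was 0.828 (edgeR). Its contrast of smallest p was hC4A/- against C4-/-, with a log2 fold change of -1.23 ± 0.69 (SE; by edgeR, adjusted p = 0.521). Without C4-/- replicate 3, a many-gene library, that value was -0.43, and without all 4 many-gene libraries it was -0.47. Hmgxb3 lies on the opposite strand and shares 873 bases of exon with Csf1r, and these libraries do not mark strand. It held 496 counts over the series beside 28134 of Csf1r. Reads that fall in the shared bases would be ambiguous and stay out of both counts. How many were lost was not tested.

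The GM-CSF receptor alpha chain gene Csf2ra (ENSMUSG00000059326, chromosome 19, 61223957 to 61228429, minus strand) was measured on few reads, 244 in all. It reached 7.68, 3.56, 6.90 and 6.09 CPM in WT, 9.20, 0.932, 21.0, 4.30 and 11.3 in C4-/-, and 10.4, 2.69, 3.43, 0.585 and 6.81 in hC4A/-. The hC4B/- libraries had 5.13, 12.1, 11.6 and 4.38 CPM, and hC4A/A 2.90 and 23.3. The 4 highest values were those of the 4 many-gene libraries. Its adjusted p in the F test was 0.940 (edgeR). The contrast of smallest p, hC4A/A against hC4A/-, had a log2 difference of 1.41 ± 1.17 (SE; edgeR adjusted p = 0.711). That direction rested on hC4A/A replicate 2: without it the value was -0.67, and without all many-gene libraries -0.76. Both of these leave 1 hC4A/A library.

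Csf2rb (ENSMUSG00000071713, chromosome 15, 78325752 to 78353847, plus strand) encodes the beta chain shared by the GM-CSF, IL-3 and IL-5 receptors. WT libraries held 66.4, 157, 287 and 205 CPM, C4-/- 75.3, 83.0, 53.1, 91.3 and 198, and hC4A/- 46.9, 387, 138, 358 and 506. In hC4B/- it was 113, 47.0, 26.5 and 255 CPM, and in hC4A/A 128 and 58.3. Of the 5 hC4A/- libraries, 3 were above every other library of the series, and the lowest, replicate 1, was below every C4-/- library. The mean was 287 ± 189 CPM in hC4A/- and 100.2 ± 56.7 in C4-/- (SD, n = 5 each), a log2 fold change of 1.52 ± 0.70 (edgeR unadjusted p = 0.037, adjusted p = 0.452). Without the many-gene libraries it was 1.51, and the F test's adjusted p was 0.561 (edgeR). Per length, Csf2rb exceeded Csf2ra in 17 of 20 libraries, by a median ratio of 10.98 (range 0.905 to 241); the 3 exceptions were many-gene libraries. Csf2rb has a near-identical neighbour, Csf2rb2, whose product serves IL-3 only. Reads that match both genes equally would be multimapping and stay out of both counts. Csf2rb took 85.1% to 99.5% of the counts of both genes in the 16 other libraries and 54.2% to 70.4% in the many-gene ones. How many reads were lost was not tested, so the level of Csf2rb is uncertain in all 20 libraries.

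Csf3r (ENSMUSG00000028859, chromosome 4, 126024550 to 126044440, plus strand) encodes the G-CSF receptor, best known from neutrophils and also expressed by microglia. It measured 36.05, 22.1, 65.9 and 58.9 CPM in WT and 63.3, 19.6, 264, 27.9 and 132 in C4-/-. The hC4A/- libraries had 29.7, 57.0, 53.5, 35.7 and 63.6 CPM, hC4B/- 17.9, 156, 84.4 and 35.8, and hC4A/A 50.9 and 144. All genotypes overlapped, and the F test gave an adjusted p of 0.795 (edgeR). The contrast of smallest p, hC4A/- against C4-/-, had a log2 fold change of -1.08 ± 0.69 (by edgeR, adjusted p = 0.557), which was -0.04 without the many-gene libraries. The 8 neutrophil markers summed to 102 to 1424 CPM in WT and 0 to 176 in the other genotypes. The highest sum, 1424 CPM in WT replicate 2, came with 22.1 CPM of Csf3r, the lowest of the WT libraries.

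The IL-6 receptor alpha chain gene Il6ra (ENSMUSG00000027947, chromosome 3, 89864059 to 89913196, minus strand) was at 78.8, 56.2, 468 and 132 CPM in WT and at 401, 427, 217, 136 and 176 in C4-/-. It was at 266, 105, 182, 186 and 279 CPM in hC4A/-, at 278, 100.1, 86.4 and 62.9 in hC4B/- and at 123 and 111 in hC4A/A. WT replicate 3 held more than the other 3 WT libraries together. Both hC4A/A values lay below all 5 of C4-/-, a separation shown downward by 1.36% of all tested genes and by no other receptor of the 10. The contrast of smallest p was hC4B/- against C4-/-, with a log2 fold change of -1.04 ± 0.70 (by edgeR, adjusted p = 0.990), and -0.52 without the many-gene libraries. Leaving out hC4B/- replicate 1 gave -1.69 and leaving out hC4B/- replicate 4 gave -0.67. For Il6ra the F test's adjusted p was 0.854 (edgeR). The antisense gene Gm42809 overlaps 242 bases of its exons and held 8 counts in all. Reads in those bases would likewise stay out of both counts.

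Il6st (ENSMUSG00000021756, chromosome 13, 112464070 to 112510086, plus strand), which encodes gp130, had 81.4, 152, 322 and 126 CPM in WT, 329.6, 270.4, 149, 70.9 and 333 in C4-/-, and 149.8, 102, 68.7, 115 and 153 in hC4A/-. The hC4B/- libraries had 110.2, 122, 291 and 68.0 CPM, and hC4A/A 42.9 and 85.5. Of the C4-/- libraries, 3 were above all of hC4A/- and hC4A/A, and 1 fell between the 2 hC4A/A values. The mean was 64.2 ± 30.1 CPM in hC4A/A (SD, n = 2) and 230.5 ± 116 in C4-/- (n = 5), a log2 fold change of -1.85 ± 0.90 (edgeR unadjusted p = 0.047, adjusted p = 1). Without the many-gene libraries, which leaves 1 hC4A/A library assumed to vary like the other groups, it was -2.36. Without hC4A/A replicate 1, which again leaves 1, it was -1.17. Over 5 genotypes the F test's adjusted p was 0.669 (edgeR). Per length, Il6st was below Il6ra in 17 of 20 libraries, with a median ratio of 0.567 (0.272 to 2.62).

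Il7r gave the widest separation of a genotype among the 10 receptors. It encodes the IL-7 receptor alpha chain (ENSMUSG00000003882, chromosome 15, 9505788 to 9530176, minus strand), which joins the common gamma chain for IL-7 or CRLF2 for TSLP. WT libraries held 130.2, 149, 498 and 189 CPM, and hC4B/- libraries 82.4, 20.5, 29.3 and 49.0. All 4 hC4B/- values were below all 4 of WT, as for 2.26% of tested genes, and below all 5 of hC4A/-, which were 168, 279, 96.8, 131 and 184 CPM. The upward separation of hC4A/- from hC4B/- was seen in 1.08% of tested genes. C4-/- held 169, 389, 23.6, 215 and 259.5 CPM, and hC4A/A 291 and 9.07. In both of these groups the low value was that of the many-gene library. The hC4B/- mean of 45.3 ± 27.5 CPM (SD, n = 4) compared with 242 ± 172 in WT (n = 4), 211 ± 133 in C4-/- (n = 5) and 172 ± 68.8 in hC4A/- (n = 5).

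For Il7r, the log2 fold change of hC4B/- against WT was -2.41 ± 0.85 (edgeR unadjusted p = 0.008, adjusted p = 0.339), with all 4 libraries lower. Against C4-/- it was -2.21 ± 0.82 (edgeR unadjusted p = 0.011, adjusted p = 0.990), and hC4A/- exceeded hC4B/- by 1.92 ± 0.81 (edgeR unadjusted p = 0.025, adjusted p = 0.254). Among the 10 receptors Il7r had the smallest adjusted p in the F test, 0.481 (edgeR). Without the 4 many-gene libraries these 3 values were -1.65, -1.75 and 1.31. The 2 remaining hC4B/- libraries, at 49.0 and 82.4 CPM, were then still below all of the other 14, of which the lowest held 96.8. The 8 lymphocyte markers, of cells that use IL-7, summed to 4.38 to 21.7 CPM in hC4B/- and 4.98 to 11.5 in WT. Cd3e was listed at 0 in 14 of 20 libraries. In such bulk samples fewer cells of a type and less RNA per cell cannot be told apart.

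Il10ra (ENSMUSG00000032089, chromosome 9, 45253837 to 45269149, minus strand), the ligand-binding chain for the anti-inflammatory cytokine IL-10, was lowest on average in WT. It held 14.4, 14.2, 35.3 and 49.2 CPM in WT, 83.4, 21.4, 159, 40.8 and 101 in C4-/-, and 35.5, 134, 148 and 40.9 in hC4B/-. The hC4A/- libraries had 24.8, 28.5, 11.7, 75.5 and 74.2 CPM, and hC4A/A 39.7 and 77.7. The WT values overlapped those of every other genotype, and the 3 highest of the series were in many-gene libraries. Against the WT mean of 28.3 ± 17.1 CPM (SD, n = 4), C4-/- averaged 81.2 ± 54.1 (n = 5), a log2 fold change of 1.52 ± 0.74 (edgeR unadjusted p = 0.049, adjusted p = 0.584). The hC4B/- mean of 89.5 ± 59.5 CPM (n = 4) gave 1.66 ± 0.77 against WT (edgeR unadjusted p = 0.040, adjusted p = 0.375). Without the many-gene libraries the 2 values were 0.93 and 0.65, and without C4-/- replicate 3 alone the first was 0.90. The F test gave an adjusted p of 0.612 (edgeR).

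Tnfrsf1a (ENSMUSG00000030341, chromosome 6, 125349362 to 125362484, plus strand), encoding TNFR1, measured 38.4, 9.97, 29.9 and 18.7 CPM in WT, 28.8, 6.53, 55.7, 6.45 and 44.6 in C4-/-, and 21.4, 15.6, 13.04, 18.1 and 15.7 in hC4A/-. It measured 10.7, 35.0, 23.8 and 4.38 CPM in hC4B/- and 16.1 and 32.4 in hC4A/A. The hC4A/- libraries varied least, with a mean of 16.8 ± 3.16 CPM (SD, n = 5), against 28.4 ± 22.2 in C4-/- (n = 5). That contrast had its smallest p, with a log2 fold change of -0.76 ± 0.74 (by edgeR, adjusted p = 0.721); it was 0.01 without C4-/- replicate 3. The F test gave an adjusted p of 0.964 (edgeR).

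Tnfrsf1b (ENSMUSG00000028599, chromosome 4, 145213463 to 145246870, minus strand), encoding TNFR2, measured 15.02, 35.6, 36.8 and 21.5 CPM in WT, 40.3, 14.9, 138, 24.2 and 39.3 in C4-/-, and 14.5, 18.8, 8.92, 18.7 and 45.9 in hC4A/-. It measured 24.3, 109, 61.9 and 7.31 CPM in hC4B/- and 26.8 and 80.3 in hC4A/A. Each of the 4 highest values came from a many-gene library. The contrast of hC4A/- against C4-/- gave a log2 fold change of -1.25 ± 0.73 (by edgeR, adjusted p = 0.529), which was -0.31 without those libraries, and the F test an adjusted p of 0.752 (edgeR). The 2 TNF receptor genes stood close to each other per length, with Tnfrsf1b above Tnfrsf1a in 11 of 20 libraries (median ratio 1.13, range 0.266 to 2.54).

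**Figure D3:**
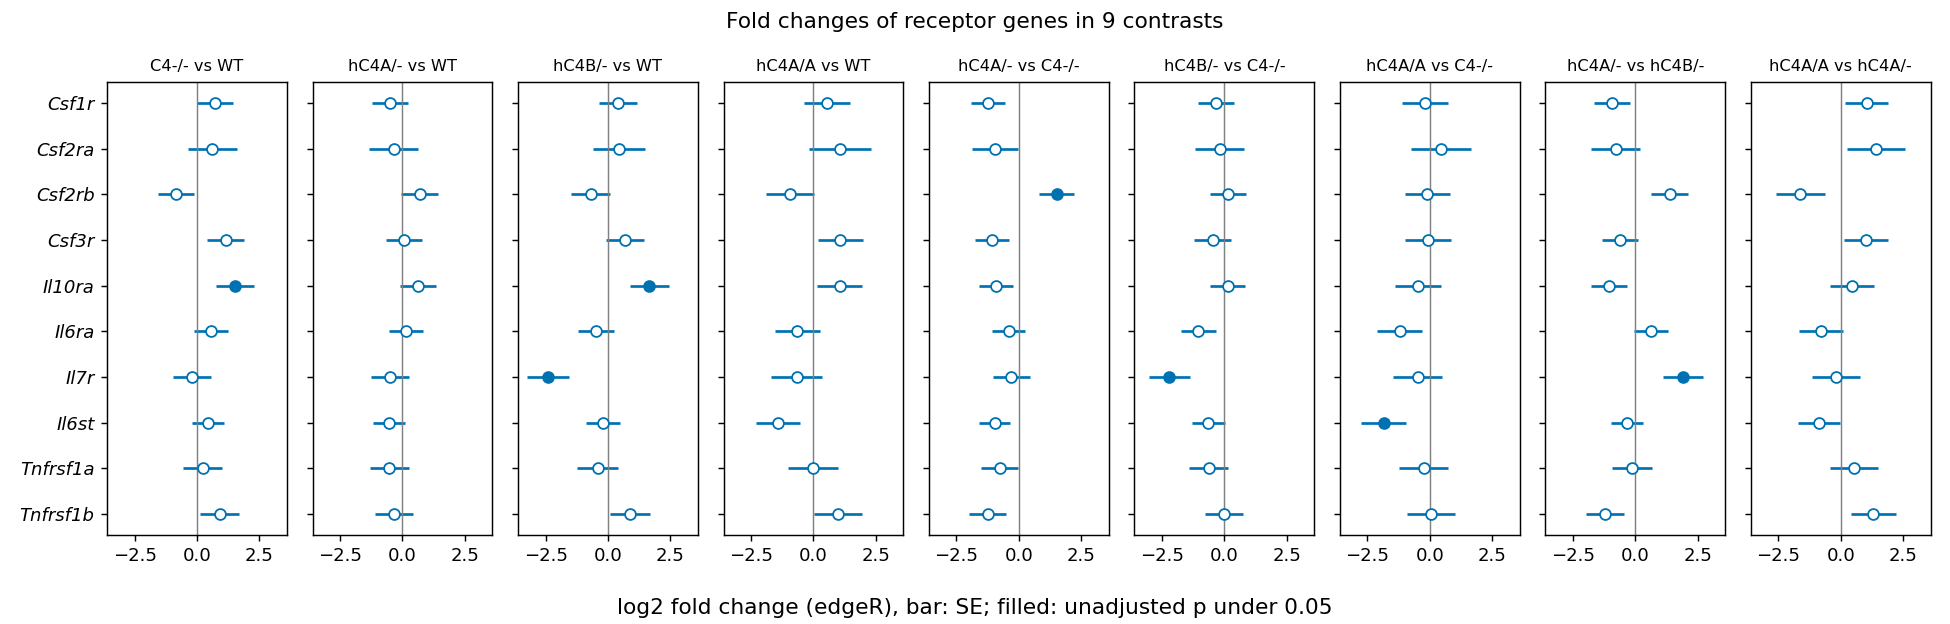
Log2 fold change (edgeR) with its SE for each receptor gene in 9 contrasts of genotype labels; filled points have an unadjusted p under 0.05, and no point passes the adjusted threshold. The points farthest from 0 are Il7r in hC4B/- against WT, at -2.41, and in hC4B/- against C4-/-, at -2.21.

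In hC4A/- against C4-/-, 9 of the 10 receptors had fold changes below 0, with a median log2 of -0.94 beside a median of -0.32 over all tested genes. No single receptor passed the adjusted threshold there, and without the many-gene libraries the receptors' median was -0.30 and that of all genes 0. Of the 10 receptors, 1 was then above 0. In C4-/- against WT, 8 of 10 were above 0 with a median of 0.59, beside 0.33 over all genes. Without the many-gene libraries 6 of 10 were above 0, and the medians were 0.05 and 0.02. These 2 comparisons share the C4-/- libraries. In the other 7 contrasts the receptors' medians lay between -0.47 and 0.48, and each changed sign under at least 1 alternative. Without the many-gene libraries, hC4A/- against hC4B/- went from -0.47 to 0.30 and hC4A/A against hC4A/- from 0.48 to -0.14. That leaves 2 hC4B/- libraries and 1 of hC4A/A. In hC4A/- against WT the median went from -0.34 to 0.06 without WT replicate 3.

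Several receptors had other means in the many-gene libraries, as many genes did. In those 4 libraries Csf1r averaged 1785 ± 697 CPM against 635 ± 277 in the other 16 (SD), Csf3r 162 ± 74.9 against 48.1 ± 28.0 and Il10ra 129.6 ± 36.1 against 43.2 ± 26.9. Each of these overlapped. Of the other 16, 2 were above the lowest many-gene value for Csf1r, 1 for Csf3r and 2 for Il10ra. Csf2ra was at 16.98 ± 6.05 against 5.39 ± 3.16 CPM and Tnfrsf1b at 97.1 ± 33.1 against 24.6 ± 11.8, both without overlap. Such upward separation was found in 2 of 10 receptors and in 9.47% of all tested genes. The ratio of the means was larger than that of Csf1r in 26.1% of tested genes and than that of Il10ra in 25.1%. For Csf2ra this share was 24.4%, for Csf3r 23.2% and for Tnfrsf1b 20.3%. Downward separation was found in 1 of 10, against 7.05% of all genes: Il7r averaged 20.6 ± 8.50 CPM against 205 ± 117, a 9.95-fold difference. With 10 genes, both counts of separated receptors are near the share of all genes. Csf2rb was also low in the many-gene libraries, at 46.2 ± 13.9 against 193 ± 133 CPM, with 1 of the 16 others below its highest value. Il6st, at 162 ± 90.1 against 156 ± 100.2 CPM, and Il6ra, at 129 ± 59.7 against 209.8 ± 131, overlapped broadly. The 4 libraries were identified by their gene number, which is itself read from these counts, so these values are a description with no test. Their satellite-like share was 49.9% to 81.0% of counts, against 13.3% to 58.8% in the other 16, and the part of library quality in these levels was not tested.

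**Figure D4:**
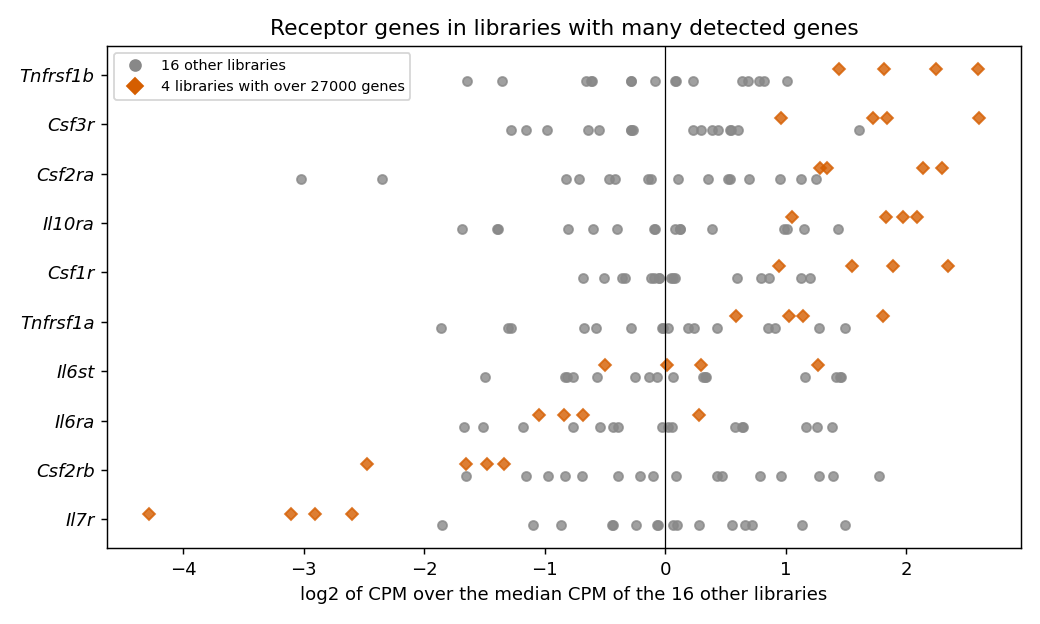
Log2 of each library's CPM over the median CPM of the 16 other libraries, for each receptor gene; diamonds are the 4 libraries with over 27000 detected genes and circles the other 16. Diamonds lie right of all circles for Tnfrsf1b and Csf2ra and left of all circles for Il7r, while Il6st diamonds lie among the circles.

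Csf1r itself was followed most closely by Itgb5, an integrin beta subunit, with a root-mean-square difference of 0.336 in centred log2 CPM over 20 libraries. The next 4 genes were 4933426K07Rik (0.385), Slco2b1 (0.403), an organic anion transporter, Cabp1 (0.414), a calcium-binding protein, and Pag1 (0.415), a membrane adaptor. The median over all tested genes was 1.28. Over the 16 libraries without the many-gene ones, their places in the same ordering were 34 for Itgb5, 7 for 4933426K07Rik, 236 for Slco2b1, 110 for Cabp1 and 218 for Pag1. The gene 4933426K07Rik averaged 0.999 CPM and Cabp1 1.75, so both rested on few reads. Of the other receptors, Tnfrsf1b (0.489), Tnfrsf1a (0.514), Csf3r (0.564) and Csf2ra (0.581) were nearest to Csf1r, and Csf2rb (1.67) and Il7r (2.03) farthest.

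Promoter sequence was looked at because the receptors differed in how they moved across libraries. RefSeq entries (GRCm38.p6) were found for 7 of the 10, all but Csf1r, Csf2rb and Il10ra. Of 6 short motifs, searched on both strands in the 250 bases before each start and chosen after the windows had been seen, 2 are shown. GAGGAAG and GGAAGT are overlapping parts of GAGGAAGT, a preferred site of PU.1, the ETS factor that macrophages require. GAGGAAG was found in 3 of 7 receptor promoters and in 10.6% of all 32851 promoters of the same length. The windows below hold it in capitals, 5′ to 3′ on the gene's strand. Starts here are RefSeq's, which differ for 3 of these genes from the gene bounds given above (GENCODE): RefSeq's start lies 109 bases inside those bounds for Csf3r, 11 for Csf2ra and 300 for Il7r. They lie at chr4:126024562-126024591 (plus strand, Csf3r), chr4:145247060-145247089 (minus strand, Tnfrsf1b) and chr19:61228419-61228448 (minus strand, Csf2ra, where it occurs in tandem). The match begins 86 bases before the RefSeq start in Csf3r, 208 in Tnfrsf1b and 14 and 8 in Csf2ra. By the GENCODE bounds the Csf3r window lies inside the gene and the Csf2ra window crosses its start.
Csf3r: ctccttcctgaGAGGAAGgggctgtctatg
Tnfrsf1b: ggtgtctcgaaGAGGAAGgagtgatagaag
Csf2ra, first match: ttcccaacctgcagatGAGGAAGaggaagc
Csf2ra, second match: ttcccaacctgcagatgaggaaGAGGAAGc

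GGAAGT was found in 2 of 7 receptor promoters and in 19.7% of all. Il6ra holds it 173 and 12 bases before the start, which is the same in both annotations (chr3:89913352-89913381 and chr3:89913197-89913226, minus strand). Il7r holds its reverse complement, ACTTCC, 49 bases before the RefSeq start (chr15:9529908-9529937, minus strand), a window that lies inside the gene by the GENCODE bounds. The 3 windows show the match in capitals.
Il6ra, distal: ggcgcggctgcaGGAAGTaaccccctccgg
Il6ra, proximal: gtgtgtcacgtgcatgtgGGAAGTcgcgcc
Il7r: ccttttgctcagACTTCCtgtttctggcac

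Of the other motifs, AGGAAGT was in 2 of 7 (7.69% of all promoters), the full GAGGAAGT in 0 of 7 (2.44%), TATAAA in 0 of 7 (12.4%) and GGGCGG in 3 of 7 (32.7%). With 7 promoters these shares describe letters in a window and say nothing about binding.

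Most ligand genes of these receptors had few reads in the sorted cells. Of 13 ligand genes listed, 7 had too few counts to be tested: Il34, Csf2, Csf3, Il10, Il7, Tnf and Lta held 3 to 14 counts each over all 20 libraries. Tslp, which signals through IL-7R alpha and CRLF2, was the most abundant of the 13, with 1064 counts, a median of 15.96 CPM (0 to 184) and 11.99 CPM per kb at the median, close to Il10ra and Il6st. Csf1 held 141 counts, with a median of 4.45 CPM (0 to 11.04). Il6 was uneven, with a median of 4.59 CPM and a range of 0 to 123 CPM. The hC4A/- mean for Il6 was 44.3 ± 46.0 CPM (SD, n = 5) against 3.599 ± 3.80 in C4-/- (n = 5), a log2 fold change of 3.57 ± 1.20 (edgeR unadjusted p = 0.005, adjusted p = 0.417). Against the hC4B/- mean of 2.99 ± 2.08 CPM (n = 4) it was 3.84 ± 1.34 (edgeR unadjusted p = 0.007, adjusted p = 0.236). The hC4A/- libraries were not uniformly high: the lowest held 0.690 CPM of Il6, below the lowest of hC4B/-, 0.731, while C4-/- ran from 0 to 8.63.

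Partner chains differed widely in level. Lifr, which pairs with gp130 for LIF, was at a median of 29.7 CPM per kb, and Il10rb, the signalling chain of the IL-10 receptor, at 10.05. The ratio of Il10rb to Il10ra per length was 0.066 to 0.230 in the many-gene libraries and 0.281 to 6.67 in the other 16. The gene of the common gamma chain, Il2rg, held 8 counts over the series beside 6152 of Il7r, and Crlf2, the TSLP partner of IL-7R alpha, 103. Osmr, the oncostatin M receptor chain, held 0 counts in WT. In hC4A/A it held 9 counts, all in many-gene replicate 2, at least 6.33-fold higher than a floor of 3 counts taken for all WT libraries together (edgeR unadjusted p = 0.008, adjusted p = 0.558). In hC4B/- it held 15, up to 13.3 CPM in many-gene replicate 2, at least 6.80-fold higher (edgeR unadjusted p = 0.009, adjusted p = 0.339).

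Of 101 listed genes of these pathways, 84 passed the filter, and 0 passed the adjusted threshold in any of the 9 contrasts. At an unadjusted p under 0.05, they numbered 3 higher and 2 lower in C4-/- against WT, 1 and 3 in hC4A/- against WT, 6 and 3 in hC4B/- against WT and 5 and 0 in hC4A/A against WT. Against C4-/- they were 1 and 6 for hC4A/-, 3 and 3 for hC4B/- and 0 and 2 for hC4A/A. In hC4A/- against hC4B/- they were 3 and 7, and in hC4A/A against hC4A/- 5 and 1. In the order given, these are 5.95%, 4.76%, 10.7%, 5.95%, 8.33%, 7.14%, 2.38%, 11.9% and 7.14% of the 84, beside 8.55%, 7.51%, 13.1%, 8.41%, 10.7%, 4.52%, 2.17%, 16.7% and 11.5% of all tested genes. The share of pathway genes was below that of all genes in 7 of the 9 contrasts.

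Among feedback regulators, Socs4 was at 6.38 ± 5.70 CPM over 5 C4-/- libraries (SD) and at 47.3 ± 28.1 over 4 WT libraries, which is -2.87 ± 0.95 on the log2 scale (edgeR unadjusted p = 0.005, adjusted p = 0.529). Socs5, of the same family of SOCS inhibitors, was at 0.499 ± 0.564 CPM in hC4A/- and 7.88 ± 7.64 in C4-/-, a log2 fold change of -3.87 ± 1.34 (edgeR unadjusted p = 0.007, adjusted p = 0.418). It rested on 4 counts in hC4A/-. Ptpn11, which encodes the phosphatase SHP2, had a log2 fold change of -3.47 ± 1.23 in the same contrast (edgeR unadjusted p = 0.008, adjusted p = 0.426). C4-/- replicate 5 alone held 117 CPM of Ptpn11, and without it the value was -1.57. Pias3, an inhibitor of STAT3, had 16.5 ± 8.63 CPM in hC4A/A (n = 2) and 0.937 ± 1.04 in hC4A/- (n = 5), a log2 fold change of 3.98 ± 1.43 (edgeR unadjusted p = 0.009, adjusted p = 0.360).

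Jak3, the kinase of the common gamma chain, rested on 1 library: it reached 1712 CPM in hC4B/- replicate 3, a many-gene library, and at most 26.5 CPM in the other hC4B/- libraries. Its log2 fold change was 7.40 ± 1.67 in hC4B/- against WT (edgeR unadjusted p = 1.03e-04, adjusted p = 0.292). It was 4.84 ± 1.33 against C4-/- (edgeR unadjusted p = 9.64e-04, adjusted p = 0.643), and -6.09 ± 1.41 in hC4A/- against hC4B/- (edgeR unadjusted p = 1.43e-04, adjusted p = 0.171). Without hC4B/- replicate 3 these were 1.99, -0.61 and -0.57. With no filter on low counts, and that library kept, Jak3 passed the adjusted threshold in all 3 (edgeR adjusted p = 9.72e-04, 0.029 and 0.003). In the TNF receptor complex, Traf1, an adaptor of TNFR2, held 14 counts in hC4A/A, all in replicate 2, and 0 in WT, at least 9.84-fold higher (edgeR unadjusted p = 0.006, adjusted p = 0.558).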

How the data were processed

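Sorted microglia of 20 mice were sequenced, and the authors deposited raw counts of reads per gene for each library, in STAR's layout per the file headers. The submitters' processing notes name the build GRCm38 and the tools edgeR and STAR, without versions; no annotation release is given in the sources used here. The column that ignores strand was used, since the stranded columns held 49.7% to 49.9% of their sum on the first strand. Lines for unmapped (14.8% to 42.1% of reads), multimapping (13.2% to 28.9%), featureless (21.8% to 42.1%) and ambiguous reads (0.897% to 5.86%) stayed out. Identifiers were matched to GENCODE M21, where 54723 of 54838 had a symbol, and exon lengths and positions came from it. The series matrix was not used.

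Genes were filtered with filterByExpr by genotype and scaled by TMM (factors 0.602 to 1.43). All 20 libraries entered 1 edgeR 4.0.16 quasi-likelihood fit (R 4.3.3, robust) with 1 coefficient per genotype, 15 residual degrees of freedom and a biological coefficient of variation (BCV) of 1.03. Benjamini-Hochberg adjustment ran over all 12680 genes. The standard error is the log2 fold change divided by the square root of F. Log2 CPM used a prior count of 2. The pipeline was tested on simulated data with known changes and less spread than these libraries. That test therefore does not show what could be called here. Alternatives were RLE scaling, DESeq2 1.42.0, limma 3.58.1 (voom), no filter, a replicate block, and leaving out each library, the satellite-like genes or the 4 many-gene libraries. Library pairs within a genotype differed by 26.3 to 140 times sampling noise per degree of freedom, so none were copies. As cDNA was amplified and no molecular identifiers are named, floors cover counting error only.

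The 10 genes, the pathway list, the markers and the tests were chosen with earlier results of these data known. All 10 are named. Fold changes are printed for each gene's contrasts with an unadjusted p under 0.05, or else that of smallest p. Pathway genes are named at an unadjusted p under 0.01, and the 5 genes most like Csf1r by root-mean-square difference. A result that this rule would name is not reported here.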

Additional observations from a re-analysis of the deposited data

Results flagged for a closer look

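In groups of 4 or 5 libraries, 4 values lay farther from the rest of their genotype than Dixon's 95% limit allows, out of 40 gene and genotype groups tested. For normally distributed values chance alone gives about 1 in 20. The values tested were CPM without a log transform, and all 4 were high ones, so the chance rate here was not known. Il7r was at 498 CPM in WT replicate 3, where the nearest WT library held 189. Tnfrsf1b was at 138 CPM in C4-/- replicate 3, a many-gene library, against 40.3 in the nearest, and at 45.9 CPM in hC4A/- replicate 5, against 18.8 in the nearest. Csf2rb was at 198 CPM in C4-/- replicate 5, against 91.3 in the nearest. Without WT replicate 3, Il7r in hC4B/- against WT was at -1.77 on the log2 scale, where all 20 libraries gave -2.41. For Tnfrsf1b in hC4A/- against C4-/- it was -0.26 without C4-/- replicate 3 and -1.54 without hC4A/- replicate 5, in place of -1.25. For Csf2rb in hC4A/- against C4-/- it was 1.92 without C4-/- replicate 5, in place of 1.52.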

How the results depend on the processing

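In 27 alternatives, the number of the 10 receptors past the adjusted threshold was 0 in each of the 9 contrasts and in the test over 5 genotypes. The most at an unadjusted p under 0.05 in a contrast was 4 (DESeq2, hC4A/- against hC4B/-), where 58 genes of the whole table passed DESeq2's adjusted threshold. RLE scaling moved the median over all genes from 0.18 to 0.53 in hC4B/- against WT and from -0.14 to -0.47 in hC4A/- against hC4B/-. For the receptors, RLE moved the median from -0.47 to -0.91 in hC4A/- against hC4B/- and from 0.48 to 0.95 in hC4A/A against hC4A/-. With RLE, 6 of 10 receptors were above 0 in hC4A/A against C4-/-, where TMM gave 2. Leaving out the 4 many-gene libraries leaves 1 hC4A/A library and 2 of hC4B/-. Csf2ra in hC4A/A against hC4A/- was then -0.76. Jak3 was then 2.81 in hC4A/- against hC4B/-, -2.97 in hC4B/- against C4-/- and -1.39 in hC4B/- against WT. With no filter on low counts Jak3 passed the adjusted threshold in these 3 contrasts, with edgeR adjusted p of 0.003, 0.029 and 9.72e-04, and without hC4B/- replicate 1 it passed in the first, at 0.042. Leaving out 1 library gave -0.67 to 2.32 for Csf2ra in hC4A/A against hC4A/-, -1.01 to 0.011 for Tnfrsf1a in hC4A/- against C4-/- and -0.61 to 5.89 for Jak3 in hC4B/- against C4-/-. The causes were not tested, and both ends for Csf2ra leave 1 hC4A/A library. Il7r in hC4B/- against WT ran from -2.85 to -1.77, and Il7r in hC4A/- against hC4B/- from 1.62 to 2.35. Osmr and Traf1 gave no value where no count was left. Correlations between libraries were taken on log2 CPM after each gene's genotype mean was subtracted. What remains sums to 0 within a genotype, and the 2 hC4A/A libraries become exact opposites. Medians near 0 are therefore partly fixed by the subtraction. Same-numbered libraries of different genotypes had a median correlation of 0.01 (33 pairs, -0.30 to 0.70), with 5 pairs over 0.1. Different-numbered ones had a median of -0.001 (124 pairs, -0.71 to 0.71), with 12 over 0.1. Whether equal numbers mark a shared batch was not tested. With the replicate block 0 receptors passed. Over all settings the adjusted p of Il7r in hC4B/- against WT ran from 0.113 to 0.693. With a biological coefficient of variation of 1.03, the number and spread of libraries limited what could be called, and Csf2ra also by its 244 reads.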
